A study of Mus musculus with 8 samples.

Results

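Aminoacyl-tRNA synthetases were examined in dermal fibroblasts of young and old mice. The members are 36 named genes, 20 for cytosolic enzymes and 16 for mitochondrial enzymes, and were found through probe sets annotated to a single gene symbol. Of these, 32 had a probe set (17 cytosolic and 15 mitochondrial) among 17097 genes in all, and each gene was read from the brightest of its probe sets, by mean level in the 8 arrays. Cars, Dars, Tars and Yars2 were not analysed here. No filter on low values was applied, so all 32 entered the test.

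Fibroblasts were sorted from collagenase-digested mouse skin without subdermis, by absence of CD45, CD117, CD24, CD31 and EpCam and presence of Pdgfra and CD34. The young group held 4 mice of 2 months and the old group 4 mice of 18 months, with 1 array per animal and no further treatment. Strain and sex are not given in the sources used here. Total RNA was amplified before hybridisation to Affymetrix perfect-match arrays, and values are RMA-normalized log2 levels, so a difference of 1 is a doubling. In such sorted samples, fewer cells of a type and less RNA per cell cannot be told apart.

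Each aminoacyl-tRNA synthetase joins 1 amino acid to its transfer RNAs, the step that sets which amino acid a codon receives. Cytosolic translation and mitochondrial translation mostly use separate enzymes from separate nuclear genes, the mitochondrial ones carrying a symbol that ends in 2. Gars and Kars are exceptions, since each encodes both the cytosolic and the mitochondrial form. Eprs joins a glutamyl and a prolyl enzyme in a single chain, and Farsa and Farsb encode the subunits of the phenylalanyl enzyme. Many cytosolic synthetase genes are known targets of ATF4, the transcription factor of the amino acid response, which the kinase GCN2 (Eif2ak4) starts when uncharged transfer RNA accumulates.

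Cytosolic synthetases differed with age in both directions. Gars, Aars, Eprs and Yars fell in old fibroblasts, Qars rose, and 12 of 17 did not pass the test (limma, adjusted p under 0.05 over 17097 genes). The 5 calls were 29.4% of the cytosolic members, against 17.5% of all genes called. The 4 lower calls were 23.5% of the members, against 7.66% of all genes, and the 1 higher call was 5.88%, against 9.87%. All 17 are among the 8554 genes at or above the median level, as are 10 of 15 mitochondrial members. Calls were more frequent there: a fit to those genes alone called 1548 of 8554 higher and 1138 lower. The called share of the cytosolic members, 29.4%, was no larger than the share called among those genes. Their share of lower calls, 23.5%, was larger. The part of level in the contrast with all genes was not tested. The median difference was -0.005 (log2, old minus young) over the 17 members and 0.008 over all genes. None of 15 mitochondrial synthetases passed (1 at an unadjusted p under 0.05), and their median difference was also -0.005. Gars, which serves both compartments, was counted as cytosolic.

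**Figure D1:**
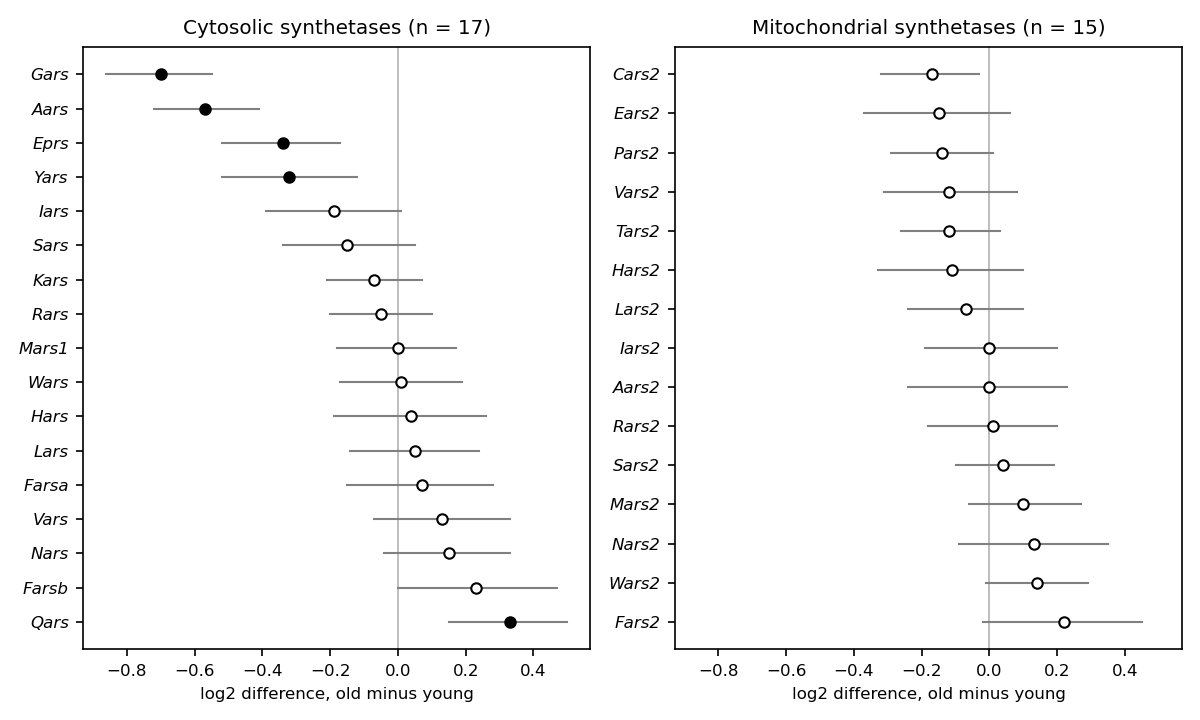
Log2 difference (old minus young) of each measured synthetase, cytosolic left and mitochondrial right, with the 95% confidence interval of the limma fit as a line. Filled points passed the adjusted threshold: 4 lower and 1 higher among cytosolic genes, and none among mitochondrial ones.

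Gars, the glycyl enzyme, had the largest difference of the members. Its level was 10.20, 10.38, 10.33 and 10.24 in young replicates 1 to 4 and 9.69, 9.50, 9.58 and 9.56 in old replicates 1 to 4. All old arrays lay below all young arrays, by more than the spread within either age. The means were 10.29 ± 0.08 and 9.58 ± 0.08 (SD, n = 4 each), a difference of -0.70 ± 0.07 (SE; old at 61.3% of young, adjusted p = 1.6e-04). This call held under all 19 other settings run, with differences between -0.83 and -0.67. It is measured by 1 probe set.

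Aars, the alanyl enzyme, stood at 8.92, 9.11, 8.85 and 9.04 in young arrays and 8.36, 8.42, 8.41 and 8.46 in old arrays. Old arrays were below young ones without overlap and close to each other (SD 0.04). The difference was -0.57 ± 0.07 (SE; old at 67.5% of young, adjusted p = 5.9e-04). The other Aars probe set fell too, by 0.45 on the log2 scale (adjusted p = 0.0329 in a fit over 28898 probe sets, of which 16.8% were called).

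Eprs, the glutamyl and prolyl enzyme, stood at 10.58, 10.61, 10.67 and 10.72 in young arrays and at 10.10, 10.40, 10.28 and 10.42 in old arrays. The ages did not overlap, and old replicate 1 was the lowest. The difference was -0.34 ± 0.08 (SE, adjusted p = 0.0155). Among its other probe sets, those at a mean of 9.10 and 9.55 differed by -0.42 (adjusted p = 0.0335) and -0.21 (0.111), and a dim one at 4.94 by 0.24 (0.278). When its 4 probe sets were averaged, Eprs was no longer called (-0.18, adjusted p = 0.183).

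Yars, the tyrosyl enzyme, stood at 6.72, 6.86, 6.50 and 6.58 in young arrays and 6.34, 6.21, 6.41 and 6.42 in old arrays. The gap between the lowest young and the highest old array was narrow. The difference was -0.32 ± 0.09 (SE, adjusted p = 0.0328). This call was lost without young replicate 1 or 2 or old replicate 1, 2 or 3 (adjusted p up to 0.0876), and with the specimen number as a block (0.062).

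Qars, the glutaminyl enzyme, moved the other way. It stood at 10.47, 10.43, 10.61 and 10.44 in young arrays and 11.00, 10.81, 10.69 and 10.76 in old arrays, with no overlap. The difference was 0.33 ± 0.08 (SE; 1.25-fold, adjusted p = 0.0188). Its probe set is of the type whose probes can also match other transcripts, so the value is uncertain. A further Qars probe set at 8.86 differed by 0.25 (adjusted p = 0.0528), and the call was lost without young replicate 2 (0.0536) or young replicate 4 (0.0528) and after median centring (0.0501).

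**Figure D2:**
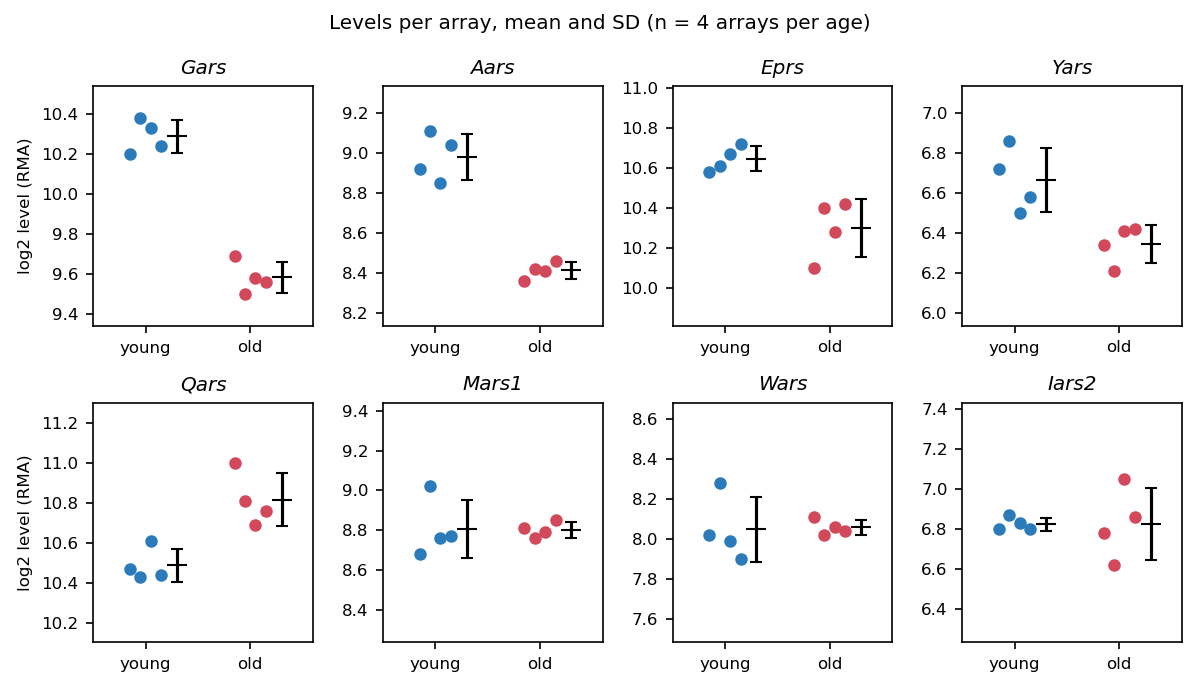
Log2 level in each array for the 5 called synthetases and for Mars1, Wars and Iars2, whose differences are among the smallest; blue points are young, red points old, and black marks give the mean and SD (n = 4). All panels span the same number of log2 units. Gars and Aars show the widest gap between ages, and the points of Mars1, Wars and Iars2 overlap.

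Control probe sets of high G and C content, designed to match no transcript, give an index of non-specific signal. This index averaged 6.43 in young and 5.83 in old arrays, lower in every old array. With it as a covariate, the difference of Gars was -0.83 (adjusted p = 0.0273). Aars then had -0.60 (adjusted p = 0.0976), Eprs -0.27 (0.557), Yars -0.27 (0.623) and Qars 0.12 (0.838). Under this covariate 68 of all genes were higher and 99 lower, against 1688 and 1310 without it. The index itself separates the ages (lowest young array 6.34, highest old array 6.18). This fit therefore cannot fully tell index and age apart, and a lost call does not show which of them applies.

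Keratinocyte markers were also present and differed with age, although EpCam-positive cells were sorted out. Of 9 measured markers 3 were higher (33.3%, against 9.87% of all genes) and 1 lower (11.1%, against 7.66%) in old, and the 9 lay between 7.04 and 10.24, none near the bottom of the range. The lower one was Trp63 (-0.40, adjusted p = 0.0237). The Epcam transcript was dim (mean 4.25 in young, 4.59 in old) and higher in every old array, but was not called (adjusted p = 0.0746). The marker score (mean over markers, centred per gene) was -0.46, -0.92, 0.41 and -0.70 in young arrays and -0.12, 0.15, 0.56 and 1.08 in old arrays. With this score as a covariate Gars (-0.68, adjusted p = 0.00379), Aars (-0.51, 0.0136) and Eprs (-0.42, 0.0428) kept their calls, and Yars (-0.27, 0.234) and Qars (0.33, 0.112) did not. Without young replicate 3 and old replicate 4, the arrays of highest score at each age, all 5 were still called, Eprs with the largest adjusted p (0.0472).

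The other checks of the sorted cells concern all genes. Array values correlated between 0.983 and 0.997. Cd34 (mean 11.73 in young, 11.68 in old) and Pdgfra (8.36 and 8.52) of the sort were not called, and of 6 dermal fibroblast genes Col3a1 fell by 0.28 while Dcn, the brightest, differed by -0.09. Of the genes sorted against none of 5 passed limma (3 at an unadjusted p under 0.05), with Cd24a brightest and of smallest p (-0.67, adjusted p = 0.0515). Tie1 rose by 0.35 among 7 endothelial markers, with Kdr brightest (0.14). Among 8 macrophage and dendritic markers Lyz2 rose by 1.08 and Csf1r, the brightest, fell by 1.92. By limma none of 4 T cell (2 at an unadjusted p under 0.05), 4 mast cell (0), 5 pericyte (2), 2 adipocyte (0) or 9 dissociation stress genes (1) passed. Their brightest members were Thy1 (-0.04), Tpsb2 (-0.11), Acta2 (0.72, adjusted p = 0.0502), Lep (0.06) and Egr1 (0.04), and Cd2 (0.20) and Jun (-0.18) had the smallest p in their lists. Thy1 averaged 12.14 in young arrays, while the other T cell markers Cd3e, Cd3g and Cd2 averaged 3.85, 4.55 and 4.63, so its level does not stand for that list. Among 5 Schwann and melanocyte markers Mlana fell by 0.56, and Sox10, the brightest, differed by -0.06. Among keratinocyte markers Krt5 was the brightest (1.04) and Krt14 had the smallest p (1.65, adjusted p = 0.00469). The part of these markers in the synthetase results, beyond the keratinocyte score above, was not tested.

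Among cytosolic members that did not pass, Mars1, the methionyl enzyme, and Wars, the tryptophanyl enzyme, had the smallest differences. Mars1 stood at 8.68, 9.02, 8.76 and 8.77 in young arrays and 8.81, 8.76, 8.79 and 8.85 in old arrays. Wars stood at 8.02, 8.28, 7.99 and 7.90 in young and 8.11, 8.02, 8.06 and 8.04 in old. In both genes old values lay inside the young range, and the 95% intervals of the difference were -0.18 to 0.17 for Mars1 and -0.17 to 0.19 for Wars. Farsb (0.23, adjusted p = 0.169), Iars (-0.19, 0.197), Sars (-0.15, 0.303), Nars (0.15, 0.28) and Vars (0.13, 0.387) had larger differences, and for these the ages overlapped. Kars, Rars, Lars, Hars and Farsa lay between -0.07 and 0.07.

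The phenylalanyl enzyme gave different values with different probe sets. Farsa differed by 0.07 with its brightest probe set (mean 7.37), but by -0.31 with a dim one (mean 5.09, adjusted p = 0.0114). Its remaining probe set (mean 5.21) differed by -0.20 (adjusted p = 0.0795). Farsb was called with its probe set at a mean of 5.75 (0.34, adjusted p = 0.0498) and not with the one used here. Of the 32 members 16 had more than 1 probe set, and 4 of their 25 further probe sets were called: 1 each of Aars, Eprs, Farsa and Farsb. That count is near the share of all probe sets called, 16.8%.

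Known groupings of the cytosolic enzymes were described by their counts alone, to be read beside the 17.5% of all genes called (7.66% lower and 9.87% higher). Calls were more frequent among genes at or above the median level, where all measured cytosolic members lie (1548 higher and 1138 lower of 8554). The called shares of the groups below lay on both sides of the share among those genes. Of the 11 measured enzymes that textbooks list as ATF4-responsive, 4 fell and none rose (36.4% called), with a median difference of -0.147. Of the 6 others Qars rose and none fell (16.7% called), with a median of 0.051. This split was chosen with results of these data known and is not independent evidence. Of 7 measured enzymes of the multi-synthetase complex, a particle that holds several cytosolic synthetases together, Eprs fell and Qars rose (28.6% called, median -0.05). Of the 10 outside it, 3 fell (30.0% called, median 0.024). By structural class, 2 fell and 1 rose of 9 class I enzymes (33.3% called, median -0.005), and 2 fell of 8 class II enzymes (25% called, median -0.016). Eprs was counted in class I alone, for its glutamyl part, although its prolyl part is of class II.

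Promoter windows were read to see whether members that fell share the element through which ATF4 acts. RefSeq windows (GRCm38.p6, 250 bases before to 50 after each start) were in the table for 11 of 17 cytosolic genes and 13 of 15 mitochondrial genes. Not among them were Hars, Lars, Nars, Rars, Vars, Wars, Hars2 and Pars2. The motif searched was TGATGNAAN on either strand (NTTNCATCA on the other), and it contains the stricter form TGATGCAAT. It was found in 4 of the 11 cytosolic genes (36.4%), in none of the 13 mitochondrial genes, and in 3.25% of 13605 genes with a probe set and a window. The 4 were Aars, Gars, Iars and Yars, of which 3 fell and Iars was not called. All 5 called cytosolic genes have a window, and those without one were all uncalled, so this tally leans to called genes. Among genes of the amino acid response it was found in 4 of 12 (33.3%). These were Asns and Nupr1, which fell, and Trib3 and Chac1, which were not called, while Atf5 fell and had no match. The stricter form was found in Aars and Iars, and in 0.162% of the 13605 genes. A match describes letters only and is not evidence of binding.

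The windows of the 5 called genes and of Iars are shown 5′ to 3′ on the strand of the gene, which is the plus strand for all 6, with matches to the motif in capitals. They lie at chr6:55037751-55038050 (Gars), chr8:111033592-111033891 (Aars), chr4:129189653-129189952 (Yars), chr13:49681880-49682179 (Iars), chr1:185362794-185363093 (Eprs) and chr9:108507755-108508054 (Qars).
Gars: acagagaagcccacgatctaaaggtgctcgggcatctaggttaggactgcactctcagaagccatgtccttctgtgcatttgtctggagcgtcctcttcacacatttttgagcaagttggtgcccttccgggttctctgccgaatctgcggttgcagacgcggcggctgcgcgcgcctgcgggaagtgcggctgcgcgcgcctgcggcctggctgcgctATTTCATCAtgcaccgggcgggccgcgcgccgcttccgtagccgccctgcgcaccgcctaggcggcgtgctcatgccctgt
Aars: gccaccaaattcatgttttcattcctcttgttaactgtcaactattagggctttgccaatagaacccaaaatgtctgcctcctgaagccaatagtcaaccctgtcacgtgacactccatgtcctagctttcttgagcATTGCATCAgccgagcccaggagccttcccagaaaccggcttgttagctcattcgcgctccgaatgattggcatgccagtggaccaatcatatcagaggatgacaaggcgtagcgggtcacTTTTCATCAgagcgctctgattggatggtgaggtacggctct
Yars: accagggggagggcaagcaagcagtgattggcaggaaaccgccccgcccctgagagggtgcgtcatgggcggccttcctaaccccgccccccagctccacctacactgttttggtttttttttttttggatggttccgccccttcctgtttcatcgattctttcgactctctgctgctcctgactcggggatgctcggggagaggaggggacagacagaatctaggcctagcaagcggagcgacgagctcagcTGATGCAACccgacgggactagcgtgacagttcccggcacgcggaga
Iars: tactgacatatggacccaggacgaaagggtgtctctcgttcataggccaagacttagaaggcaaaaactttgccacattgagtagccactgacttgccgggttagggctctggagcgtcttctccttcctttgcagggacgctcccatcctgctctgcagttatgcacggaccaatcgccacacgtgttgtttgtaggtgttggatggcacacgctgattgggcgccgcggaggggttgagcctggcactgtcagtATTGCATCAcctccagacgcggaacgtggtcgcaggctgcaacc
Eprs: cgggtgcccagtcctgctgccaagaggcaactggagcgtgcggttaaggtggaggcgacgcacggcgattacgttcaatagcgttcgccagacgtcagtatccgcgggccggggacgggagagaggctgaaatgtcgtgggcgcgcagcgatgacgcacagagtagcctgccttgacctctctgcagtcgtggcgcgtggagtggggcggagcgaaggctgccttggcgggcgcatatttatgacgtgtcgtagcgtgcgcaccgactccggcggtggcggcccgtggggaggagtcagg
Qars: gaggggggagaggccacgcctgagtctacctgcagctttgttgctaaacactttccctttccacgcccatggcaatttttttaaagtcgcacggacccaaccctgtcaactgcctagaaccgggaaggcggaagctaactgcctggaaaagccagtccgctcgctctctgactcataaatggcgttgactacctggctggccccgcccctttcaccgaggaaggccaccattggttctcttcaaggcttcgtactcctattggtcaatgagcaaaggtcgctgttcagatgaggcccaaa

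In Gars the match begins 31 bases before the start site. Aars holds 2 matches, 1 beginning 113 bases before the start and 1 beginning 8 bases past it. Those of Yars and Iars begin 3 and 6 bases past the start. The windows of Eprs, which fell, and Qars, which rose, hold no match, which says only that these letters are not in this window.

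Gars (-0.70) and Kars (-0.07), which also encode mitochondrial forms, were counted as cytosolic. The 15 measured synthetase genes with a symbol ending in 2 showed small differences throughout. These genes were also dimmer, with a median level of 6.74 against 8.7 for cytosolic ones, and RMA compresses differences near background. The part of level in this contrast was not tested. The differences ranged from -0.17 (Cars2) to 0.22 (Fars2), and no 95% interval reached below -0.37 or above 0.45. The probe sets of Fars2 and Tars2 are, like that of Qars, of the type whose probes can also match other transcripts. Cars2, the cysteinyl enzyme, stood at 7.46, 7.53, 7.39 and 7.35 in young and 7.21, 7.36, 7.21 and 7.26 in old arrays, overlapping by 1 old array (adjusted p = 0.105). After a second quantile normalization it was called lower (-0.23, adjusted p = 0.0365). Pars2, the prolyl enzyme, was the 1 member without overlap that was not called. It stood at 4.77, 4.74, 4.77 and 4.76 in young and 4.69, 4.55, 4.73 and 4.51 in old arrays (-0.14, adjusted p = 0.188). Ages did not overlap for 6 of the 32 members, against 21.3% of all genes. Old arrays lay below young ones for 5 of them, against 9.66% of all genes, and above for 1, Qars, against 11.7%.

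Aars2 and Iars2, the alanyl and isoleucyl enzymes of mitochondria, had the smallest mitochondrial differences. Aars2 stood at 6.74, 7.09, 6.67 and 6.79 in young arrays and 6.98, 6.64, 6.74 and 6.91 in old arrays. Iars2 stood at 6.80, 6.87, 6.83 and 6.80 in young and 6.78, 6.62, 7.05 and 6.86 in old. The ages overlapped in both, and their 95% intervals were -0.24 to 0.23 and -0.19 to 0.20. Ears2 (-0.15), Tars2 (-0.12), Vars2 (-0.12), Hars2 (-0.11) and Lars2 (-0.07) were on the lower side, and Wars2 (0.14), Nars2 (0.13), Mars2 (0.10), Sars2 (0.04) and Rars2 (0.01) on the upper side. Mars2 had a mean of 3.58 where the dimmest of all genes had 3.31, so a decrease in it could hardly have been seen.

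Whether a cytosolic enzyme and its mitochondrial partner differed in their response to age was tested in 14 of 17 listed pairs, as the per-array difference of the 2 log2 values. These pair rows were fitted together with all genes, and 17.5% of that table was called. By mean level the mitochondrial partner was the dimmer gene in all 14, and the part of level in these values was not tested. Alanine was the 1 amino acid whose pair was called. Aars minus Aars2 was 2.18, 2.02, 2.18 and 2.25 in young and 1.38, 1.78, 1.67 and 1.55 in old arrays, without overlap. Its change was -0.56 ± 0.09 (SE, adjusted p = 0.00265), with an exact 2-sided permutation p of 0.0286, the smallest that 4 against 4 arrays allow. With the index of non-specific signal as a covariate the change was -0.33 and the pair was not called (adjusted p = 0.459).

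The other 13 pairs did not pass. Sars minus Sars2 changed by -0.19 (95% interval -0.38 to 0.00, adjusted p = 0.177) and Vars minus Vars2 by 0.24 (-0.01 to 0.50, 0.189). Eprs changed by -0.19 against Ears2 (adjusted p = 0.222) and by -0.20 against Pars2 (0.244), both pairs sharing Eprs. The change was negative in 9 of the 14 pairs. Gars was in no pair, because its gene serves both compartments. Eprs against Ears2 was called without young replicate 2 (-0.29, adjusted p = 0.0367), and Sars against Sars2 without old replicate 1 (-0.26, 0.0326).

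**Figure D3:**
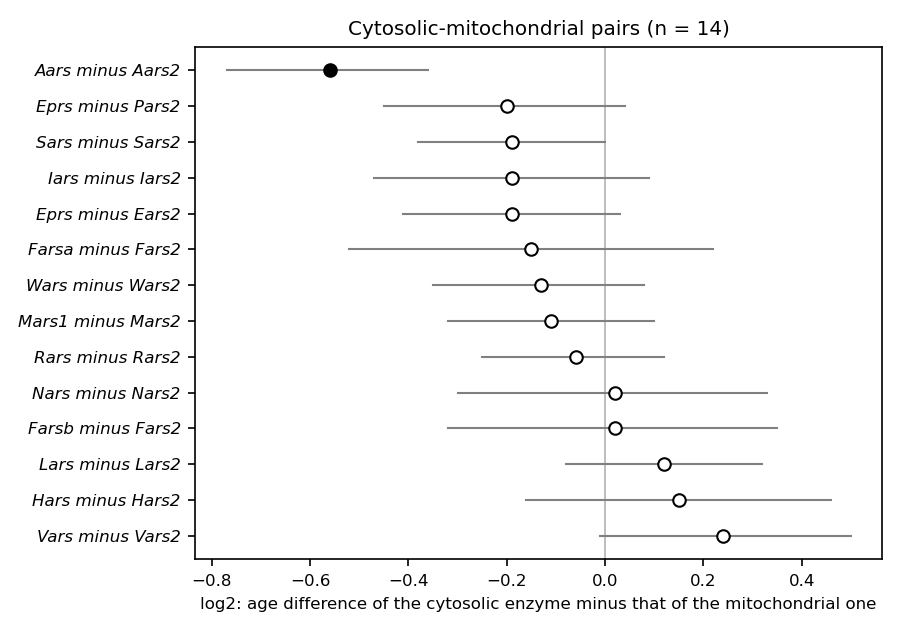
Age difference (log2, old minus young) of each cytosolic enzyme minus that of its mitochondrial partner, for 14 pairs, with the 95% confidence interval of the limma fit as a line. The filled point, Aars minus Aars2 at -0.56, is the pair that passed the adjusted threshold.

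Young arrays differed along many synthetases at once, and with 1 array per animal, animal and sample handling cannot be told apart. Young replicate 2 was the highest young array for 13 of 17 cytosolic and 8 of 15 mitochondrial members, against 29.1% of all genes. The cytosolic score (mean over members, centred per gene) was 0.17 in that array, against -0.01, -0.01 and 0.02 in the other young arrays, and its keratinocyte marker score was the lowest (-0.92). Old scores were 0.02, -0.09, -0.09 and -0.01 and overlapped those of the young arrays. Without young replicate 2 the median cytosolic difference was 0.066, against -0.005 with it. Mitochondrial scores lay between -0.05 and 0.07 in all 8 arrays. Gars and Aars kept their calls without that array, with adjusted p of at most 9.7e-04 and 0.00282 over all arrays left out in turn.

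**Figure D4:**
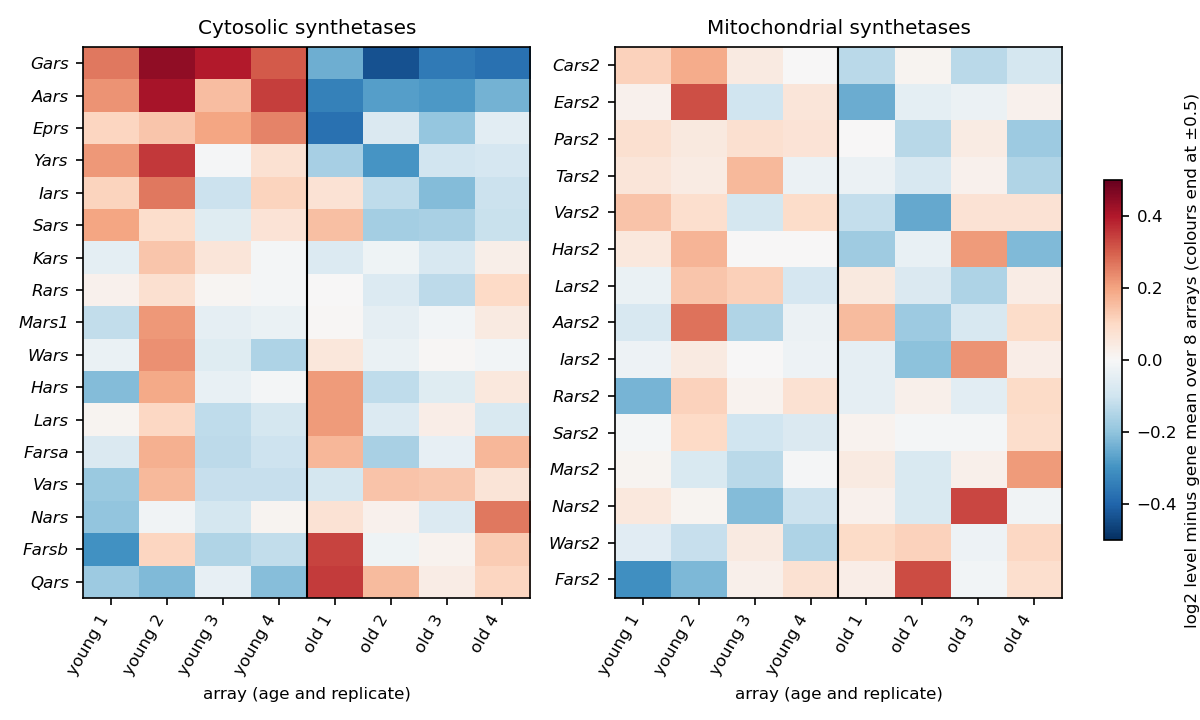
Log2 level of each synthetase in each array minus its mean over the 8 arrays, red above and blue below the mean, ordered by age difference from lowest (top) to highest. Gars, Aars, Eprs and Yars are red or near the mean in young and blue in old arrays, Qars is the reverse, and young replicate 2 is red down most of the cytosolic column.

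Other proteins that work beside the synthetases were counted from lists of the pathway. The complex scaffold genes Aimp1 (0.15), Aimp2 (0.00) and Eef1e1 (0.12) did not pass by limma (0 of 3, and 0 at an unadjusted p under 0.05). Of 10 further charging and editing genes, Prorsd1 fell and Sepsecs rose (20.0%, near the 17.5% of all genes). Prorsd1, related to the editing domain of prolyl synthetases, stood at 8.11, 8.49, 8.34 and 8.29 in young and 7.60, 7.25, 7.52 and 7.12 in old arrays. The ages were well apart (-0.93 ± 0.12 SE, adjusted p = 6.6e-04), a larger difference than that of any synthetase. Sepsecs, which makes selenocysteine on its transfer RNA, rose by 0.32 (adjusted p = 0.0283), a call that was lost without 6 of the 8 arrays, taken 1 at a time (all but young replicate 1 and old replicate 2; adjusted p up to 0.0803).

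Of 17 genes of transfer RNA processing and export, 2 fell and 1 rose (17.6%, near the 17.5% of all genes). Xpot, the exporter that carries transfer RNA out of the nucleus, stood at 8.89, 8.73, 8.68 and 8.68 in young and 8.24, 8.23, 8.42 and 8.40 in old arrays (-0.42 ± 0.08 SE, adjusted p = 0.0041). Pop7, a subunit of ribonuclease P, which trims the leading end of transfer RNA precursors, fell by 0.37 (adjusted p = 0.0398), and this call was lost without any array but young replicate 3 or 4 (up to 0.0867). Elac1, an endonuclease that acts on transfer RNA ends, rose by 0.57 (adjusted p = 0.0052). By limma none of 5 cytosolic elongation factors (2 at an unadjusted p under 0.05) and none of 6 mitochondrial translation factors (0) passed. Elongation factor differences lay between 0.01 and 0.20, and those of the mitochondrial factors between -0.11 and 0.12.

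Among 13 genes of the amino acid response, 4 fell and 1 rose, 38.5% called against 17.5% of all genes, with a median difference of -0.24. Their median level was 8.62, against 5.99 for all genes, and brighter genes were called more often. Eif2ak4, the kinase GCN2, stood at 5.66, 5.81, 5.66 and 5.88 in young and 6.48, 6.74, 6.47 and 6.99 in old arrays, a rise of 0.92 ± 0.12 (SE; 1.89-fold, adjusted p = 6.9e-04). Atf4 itself stood at 11.37, 11.31, 11.29 and 11.40 in young and 11.39, 11.41, 11.44 and 11.52 in old arrays, overlapping by 1 old array (0.10, adjusted p = 0.31). Array values measure transcript only, and ATF4 is known to be controlled at translation.

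Genes known as ATF4 targets were among those that fell. Asparagine synthetase, Asns, stood at 6.59, 6.78, 7.01 and 7.03 in young and 5.92, 5.83, 5.70 and 6.61 in old arrays, where old replicate 4 reached the young range (-0.84 ± 0.19 SE, adjusted p = 0.0122). Eif4ebp1, an inhibitor of cap-dependent translation, fell by 0.70 (adjusted p = 6.7e-04), the transcription factor Atf5 by 0.43 (0.00894) and the stress regulator Nupr1 by 0.35 (0.00686). Ddit3 (0.24), Trib3 (-0.20), Chac1 (-0.30), Sesn2 (-0.14), Ddit4 (-0.32), Cebpb (-0.03) and Gcn1 (-0.24) did not pass. All 10 called genes of these companion lists lost their calls with the index of non-specific signal, which itself separates the ages, as a covariate. Atf5 (-0.43), Eif4ebp1 (-0.66), Nupr1 (-0.32) and Sepsecs (0.31) stayed near their size with the index. Elac1 (0.77, adjusted p = 0.13), Asns (-1.22, 0.162) and Prorsd1 (-1.06, 0.0845) had larger differences than without it. Eif2ak4 (0.77, adjusted p = 0.184), Xpot (-0.22, 0.565) and Pop7 (-0.25, 0.742) had smaller ones. With the keratinocyte score as a covariate Elac1 (0.56, adjusted p = 0.0518), Nupr1 (-0.27, 0.0997), Sepsecs (0.38, 0.0761) and Pop7 (-0.30, 0.261) were not called.

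**Figure D5:**
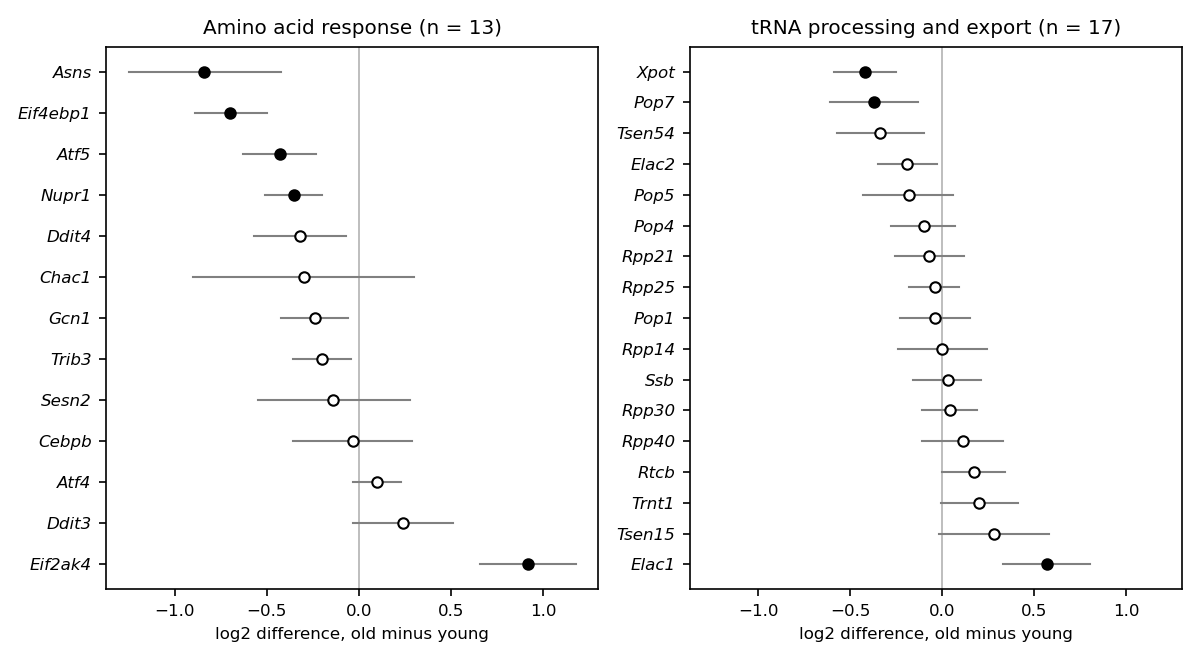
Log2 difference (old minus young) of genes of the amino acid response (left, 13 genes) and of transfer RNA processing and export (right, 17 genes), with 95% confidence intervals of the limma fit; filled points passed the adjusted threshold. Asns, Eif4ebp1, Atf5, Nupr1, Xpot and Pop7 fell, Eif2ak4 and Elac1 rose, and Atf4 lies at 0.10.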

How the data were processed

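The authors deposited log2 probe set summaries for 8 arrays, made with RMA and the R package affy per the submitters' processing notes (versions not given in the sources used here). RMA makes array distributions alike, which hides a shift shared by most genes, and compresses differences near background. The table held 45141 probe sets, of which 28898 had a single gene symbol, 551 had several and 15692 none; 28689 of the 28898 matched RefSeq gene IDs (GRCm38.p6). Members and lists were chosen with earlier results of these data known. The age comparison over 17097 genes used lmFit and eBayes of limma 3.58.1 (R 4.3.3; no covariate, 2-sided), with Benjamini-Hochberg adjustment and a threshold of 0.05. The same fit gave intervals at 95%. The non-specific index is the mean of 8 control probe sets with 18 or more G or C bases of 25. Values by array are given for called synthetases and the 2 of smallest difference in each group (Cars2, Pars2 and companion genes were added after their values were seen), and up to 4 called genes of largest difference in each companion list are named, with Atf4; Nupr1 and the uncalled companion genes were added after their values were seen. On simulated data for this comparison (17097 genes, 66 or 67 changed by each size), the test recovered 13.4% of changes of 0.3, 67.2% of 0.5 and 93.9% of 1, and 2.52% of calls were false. Far fewer genes were changed there than were called in the real data, and noise was drawn separately for each gene. These rates therefore do not carry over to the real calls. The number of arrays limits the precision. Alternatives covered scaling, probe set choice, dim genes, variance settings, array weights, a replicate block, the non-specific index and each array left out. Those on keratinocyte markers and single probe sets were added after seeing the data. Figures used matplotlib 3.10.9.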

Additional observations from a re-analysis of the deposited data

Results flagged for a closer look

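For Wars2, the mitochondrial tryptophanyl enzyme, old replicate 3 stood apart from the other old arrays, at 6.46 against 6.58 to 6.60 (a gap of 0.857 of the range, above Dixon's 95% critical value for 4 samples). It was the 1 group of 64 tested to stand out in this way, and chance alone picks out about 1 group in 20.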

How the results depend on the processing

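The lower calls of cytosolic members numbered 3 to 5 under every setting except the non-specific index as a covariate, with 1. The higher call (1) became 0 with median centring, the mean over all probe sets, the index covariate (0) and the keratinocyte covariate, and 2 with the most variable probe set. Mitochondrial calls were 0 except for 1 lower after a second quantile normalization, where the median was -0.063. That normalization made 1415 of all genes higher and 1716 lower, against 1688 and 1310. The cytosolic median was -0.147 with the index covariate, and the mitochondrial median -0.053 with the keratinocyte covariate and also without both arrays of highest keratinocyte score. Calls over all genes were 68 and 99 with the index, 627 and 671 with the keratinocyte covariate, and 903 and 803 without those arrays. Companion genes called higher (3) were 5 with the mean over probe sets, 0 with the index and 1 with the keratinocyte covariate, and those called lower (7) were 0 with the index. Called pairs (1) were 3 with the most variable probe set and 0 with the index. With 1 array left out, cytosolic higher calls were 0 to 1, lower calls 3 to 4, called pairs 1 to 2, the cytosolic median -0.047 to 0.066 and the mitochondrial median -0.063 to 0.018. Directions reversed for single probe sets: Farsa at -0.31 (also with the most variable probe set) and -0.20, Eprs at 0.24 and Qars at -0.12. Wars was at -0.09 with another probe set, against 0.01 with the one used here. Causes were not tested, except that leaving out arrays removes data.

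The labels number specimens 1 to 4 at each age, and collection was by day, but same-numbered arrays deviated together in 2 of 4 cases (correlations 0.29, 0.05, -0.04 and 0.22), and not every array correlated best with its own number. With the number as a replicate block 1838 genes were higher and 1268 lower, cytosolic lower calls were 3 (Yars, adjusted p = 0.062) and no other synthetase call changed.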
